A study of Mus musculus with 27 samples.

Results

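The C-type lectin receptors described here are the products of 10 genes, Clec4d, Clec4e, Clec4n, Clec4a1, Clec4a2, Clec4a3, Clec5a, Clec7a, Clec12a and Clec2d, which were selected by gene symbol from the 45070 genes of the deposited table. All 10 passed the filter on low values that left 13901 genes to test. The study asked how clinical kinase inhibitors alter macrophage activation, and the samples used here carried no inhibitor. They were bone marrow-derived macrophages (BMDMs), primary macrophages grown in culture from mouse bone marrow, in which RNA bound to chromatin was sequenced, a fraction rich in transcripts that are still being made. The mice were wild type, male, of the C57/BL6 strain and 6 to 8 weeks old. All 27 samples received DMSO, the inhibitors' solvent, for 1 h. They were then left untreated (UT), or received lipopolysaccharide (LPS) from the outer membrane of bacteria, which TLR4 senses, or the cytokine interleukin-4 (IL-4). Both stimuli were given at 10 ng/ml and for 0.5, 1, 2 or 4 h. The 9 groups held 3 replicates each, numbered 1 to 3, and the labels do not say whether these came from separate animals or cultures, so p-values measure the spread between these samples.

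C-type lectin receptors are membrane proteins that bind sugars, lipids and other ligands of microbes and dying cells. Mincle (Clec4e), MCL (Clec4d) and Dectin-2 (Clec4n) signal through the adaptor FcRγ (Fcer1g), MDL-1 (Clec5a) signals through DAP12 (Tyrobp), and Dectin-1 (Clec7a) carries its own tyrosine motif for the kinase Syk, which acts through Card9, Bcl10 and Malt1 on NF-κB. DCIR (Clec4a2) and MICL (Clec12a) carry inhibitory tyrosine motifs that recruit phosphatases such as SHP-1 (Ptpn6), Clec4a1 and Clec4a3 belong to the DCIR family, and Clec2d is a ligand of the inhibitory natural killer cell receptor NKR-P1B.

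All 10 genes are protein-coding and lie on chromosome 6 (coordinates of the deposited table, GRCm38). Clec4a1 (chr6:122921848-122934619), Clec4a3 (chr6:122952515-122969878), Clec4a2 (chr6:123122690-123143999), Clec4n (chr6:123229843-123247024), Clec4d (chr6:123262107-123275268) and Clec4e (chr6:123281789-123289871) share 1 cluster of 368 kb, in which Clec4e alone among these 6 runs on the minus strand. Clec2d (chr6:129180615-129186535, plus), Clec12a (chr6:129350244-129365303, plus) and Clec7a (chr6:129461591-129472785, minus) lie in another cluster of 292 kb, and Clec5a (chr6:40574898-40585805, minus) lies apart. The whole of Clec7a lies within the non-coding gene Gm45969 of the opposite strand (chr6:129459788-129501701), and no other member overlaps an annotated gene.

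Promoter windows of 300 bases around the annotated start (RefSeq, GRCm38.p6) matched 9 of the 10 members by symbol, Clec4n being the other, and gave 11 windows since Clec7a and Clec4a3 have more than 1 start. They were searched on both strands for letters of NF-κB sites (GGG or GGA, any 5 bases, then CC, in 50.8% and 48.3% of all 32851 promoter windows), STAT sites (TTC, any 3 or 4 bases, then GAA, in 8.30% and 6.95%), AP-1 sites (TGANTCA, 7.81%), C/EBP sites (TTGCNNAA, 10.8%) and interferon-response sites (GAAA, any 2 bases, then GAAA, in 3.44%). Of the 9 members with a window, 1 held the GGG form (Clec4a1) and 3 the GGA form. The 2 NF-κB forms match overlapping bases in Clec4a1. The following 4 stretches of 30 bases, picked after the values were seen, come from members whose RNA moved far after LPS or IL-4, and are written 5′ to 3′ on the gene's strand with the matching letters in capitals.
Clec7a: catttcagttTTCTTCAGAAgttacagcct
Clec4e: actccttgtccTTGTGCAAgagaggaaatt
Clec2d: agagtgtgctGAAAGAGAAAcgaaacacaa
Clec5a: tcccctgaaaGGAACCTTCCtccttcagaa
The Clec7a stretch (chr6:129472891-129472920) holds the STAT letters, which in this spacing occur in Clec7a, Clec5a and Clec4a1. The Clec4e stretch (chr6:123289919-123289948) holds the C/EBP letters read on the opposite strand, shared with Clec12a, the Clec2d stretch (chr6:129180416-129180445) holds the interferon-response letters, shared with Clec4d, and the Clec5a stretch (chr6:40585873-40585902) holds 1 form of the NF-κB letters, shared with Clec4a1 and Clec4a3. A match is a description of the letters and does not show that a factor bound there.

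Values are read counts per gene scaled by the authors on invariant genes, here called normalized read counts, so the sequencing depth behind them is unknown. Their sum was 2469768 to 2790981 in untreated and IL-4 samples and 3571492 to 4058199 in LPS samples. After LPS the median tested gene was lower than in untreated cells by between 0.24 and 0.30 on the log2 scale. Rescaling by median-of-ratios factors brought this median to between −0.03 and 0.00, and rescaling to equal totals to between −0.95 and −0.75. All 12 macrophage markers were detected and summed to between 10438 and 11653 in untreated samples. The neutrophil markers summed to 15 to 29 in untreated samples and to at most 164 in any sample, with Ly6g at 0 throughout, and those of T, B and NK cells summed to at most 18, with Cd3e and Cd3g at 0. The dendritic cell markers summed to 11 to 20 in untreated samples, 56 to 106 at LPS 1 h and 52 to 59 at LPS 4 h, with Xcr1 at 0 throughout. The fibroblast and endothelial markers summed to 48 to 94 in untreated samples, 94 to 227 at LPS 4 h, 130 to 310 at IL-4 2 h and 176 to 265 at IL-4 4 h. The part of these cells in the members' values was not tested. Less RNA per cell and fewer cells of a kind cannot be told apart in such bulk samples.

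Replicate 1 stood apart from replicates 2 and 3 in these genes. It held the lowest of the 3 values in 9 of 9 groups for Clec7a and Clec12a and in 8 of 9 for Clec5a, and the highest in 8 of 9 groups for Clec4a1 and in 7 of 9 for Clec4n. On the log2 scale the distance of replicate 1 from the mean of the other replicates had a median of −0.56 for Clec7a, −0.63 for Clec5a and 0.90 for Clec4n over the 9 groups. Calls against untreated cells and between the stimuli that change when a replicate is left out are given beside each gene, and those of the steps between times with the steps. Fits without a replicate hold fewer samples, so a call can be lost at a nearly unchanged effect. Clec4d at IL-4 0.5 h, for example, was −1.05 with all samples and −1.01 without replicate 2.

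**Figure D1:**
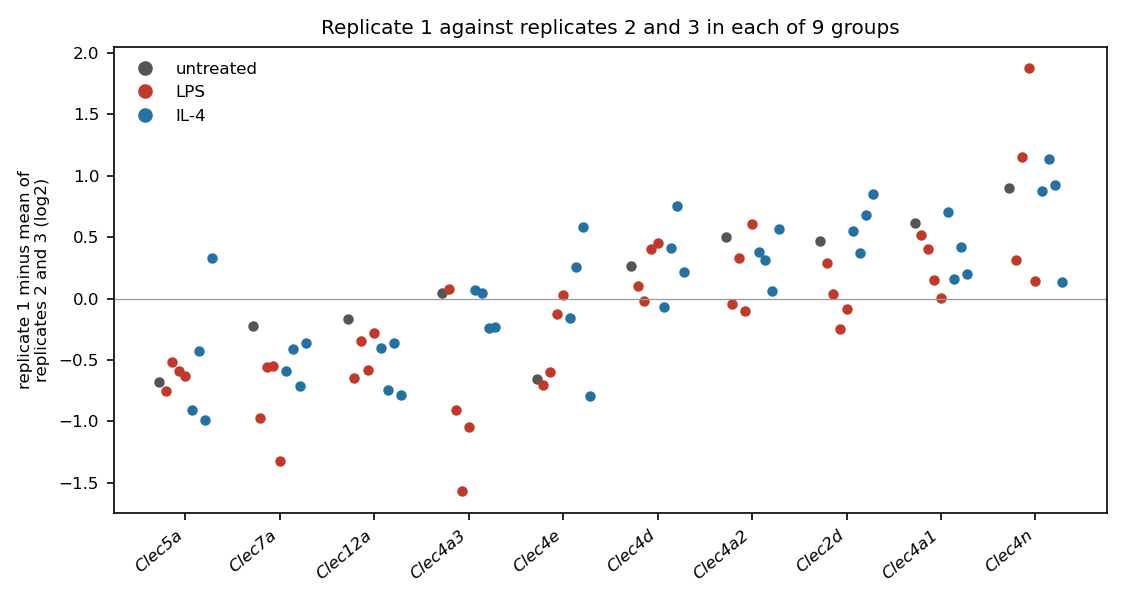
Distance of replicate 1 from the mean of replicates 2 and 3 (log2 of normalized read counts + 1, vertical axis) for each member (horizontal axis), 1 point per group, gray for untreated, red for LPS and blue for IL-4. All 9 points of Clec7a and Clec12a lie below 0 and all 9 of Clec4a1 and Clec4n lie above it.

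After LPS, 8 of the 10 genes differed from untreated cells at 0.5 h (6 higher and 2 lower), with an adjusted p under 0.05 in limma, beside 53.9% of all tested genes. At 1 h there were 9 (6 higher and 3 lower, beside 63.8% of genes), at 2 h 7 (5 higher and 2 lower, beside 65.9%) and at 4 h 6 (4 higher and 2 lower, beside 63.5%). At 2 and 4 h these counts lay close to the share of all genes. Of all tested genes, 19.6%, 24.8%, 26.9% and 25.9% were called higher and 34.4%, 39.0%, 39.0% and 37.6% lower at the 4 times. In time order, the median of the 10 log2 fold changes was 1.10, 1.29, 0.59 and 0.78, against −0.24, −0.30, −0.29 and −0.26 over all tested genes. The replicates of LPS and untreated cells did not overlap for 8, 9, 7 and 7 of the 10 genes, beside 61.9%, 68.9%, 69.5% and 68.9% of all tested genes. Over the whole course all 10 genes changed (F test, beside 87.6% of genes). Rescaled to equal totals, the calls were 5 higher and 3 lower after 0.5 h, 6 and 4 after 1 h, 4 and 4 after 2 h, and 4 and 4 after 4 h.

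After IL-4, 3 of the 10 genes differed from untreated cells at 0.5 h (1 higher and 2 lower, beside 16.3% of genes), 5 at 1 h (1 higher and 4 lower, beside 21.0%), 6 at 2 h (1 higher and 5 lower, beside 27.6%) and 7 at 4 h (2 higher and 5 lower, beside 25.9%). Of all tested genes, 8.15%, 11.1%, 14.3% and 13.4% were called higher at these times and 8.14%, 9.83%, 13.2% and 12.5% lower. The median of the 10 log2 fold changes was −0.07, −0.68, −0.92 and −0.92, against −0.02 to 0.02 over all tested genes. Replicates of IL-4 and untreated cells did not overlap for 5, 8, 6 and 8 of the 10, beside 28.2%, 33.1%, 39.7% and 36.0% of all tested genes. The IL-4 course changed 8 of the 10 (beside 40.3% of genes), and the exceptions were Clec2d and Clec4a1. In 1 fit of all 27 samples Clec4a3 lost this call too (adjusted p = 0.0524). Both courses were compared with the same 3 untreated samples.

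**Figure D2:**
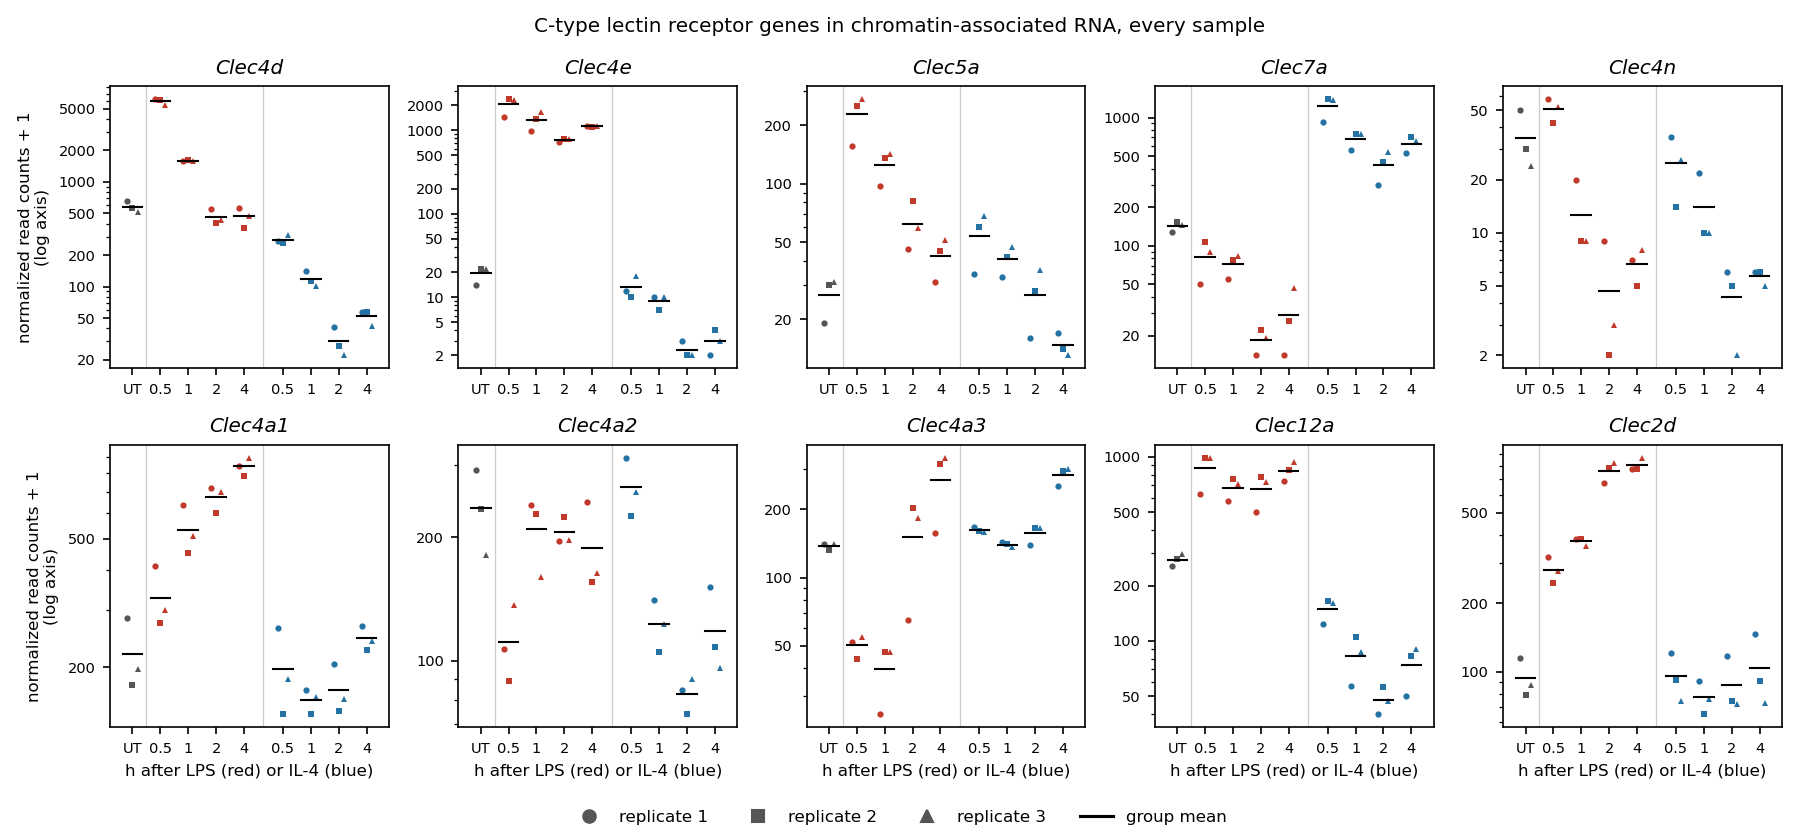
Normalized read counts + 1 (vertical log axis, its range set for each gene) of the 10 genes in all 27 samples, for untreated cells (UT, gray) and by hours after LPS (red) or IL-4 (blue), with a marker shape per replicate and a bar at each group mean. Clec4e rises from 13 to 21 in untreated cells to 716 or more in every LPS sample, and Clec7a reaches 298 or more in every IL-4 sample.

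Clec4e, which encodes Mincle, a receptor for mycobacterial glycolipids and for a nuclear protein released by dying cells, went from near the lower end of detection to one of the strongest members. Untreated replicates 1, 2 and 3 held 13, 21 and 21 normalized read counts. After LPS they held 1447, 2386 and 2323 after 0.5 h, 991, 1354 and 1660 after 1 h, 716, 783 and 777 after 2 h, and 1130, 1095 and 1116 after 4 h. Every LPS sample lay far above every untreated sample, and the level stayed high to 4 h. The log2 fold change was 6.73 ± 0.22 (SE, n = 3 per group) at 0.5 h, a ratio of means of 112, and 5.33 ± 0.22 at its lowest at 2 h (adjusted p = 1.69e-12 and 1.05e-11). The step from 0.5 to 1 h (−0.62, adjusted p = 0.0273) and that from 1 to 2 h (−0.78, adjusted p = 0.00781) were called with all samples, and both lost the call without replicate 2 (−0.52 and −0.78, adjusted p = 0.236 and 0.0939) or without replicate 3 (−0.68 and −0.63, adjusted p = 0.0900 and 0.128).

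IL-4 took Clec4e the other way. Its samples held 11, 9 and 17 after 0.5 h, 9, 6 and 9 after 1 h, 2, 1 and 1 after 2 h, and 1, 3 and 2 after 4 h. From 2 h on every IL-4 sample was at or under 3, and against that floor the gene was at least 6.11-fold lower than in untreated cells at both 2 and 4 h (adjusted p = 1.05e-05 and 3.40e-05). The lower value at 1 h (log2 fold change −1.09 ± 0.33, adjusted p = 0.0294) was not called without replicate 2 (−0.81, adjusted p = 0.284) or without replicate 3 (−1.07, adjusted p = 0.215).

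Clec4d encodes MCL, which pairs with Mincle at the cell surface, and its gene lies next to Clec4e, on the opposite strand. It was the most abundant member per kb of locus in untreated cells, with 44.1 normalized read counts per kb against 2.27 for Clec4e. Untreated replicates held 654, 567 and 521 normalized read counts. After LPS they held 6230, 6109 and 5485 after 0.5 h, 1587, 1630 and 1582 after 1 h, 550, 400 and 430 after 2 h, and 567, 365 and 470 after 4 h. The rise was thus a burst, 10.2-fold at 0.5 h and 2.75-fold at 1 h by the ratio of means (log2 fold change 3.36 ± 0.15 and 1.47 ± 0.15, adjusted p = 1.18e-10 and 7.87e-07), and at 2 and 4 h the samples overlapped with the untreated ones. The later values of −0.34 and −0.33 were not called (adjusted p = 0.0609 and 0.0728), and they were with equal totals (−1.0 and −0.94, adjusted p = 2.95e-05 and 5.97e-05) and without replicate 1 (both −0.39, adjusted p = 0.00707 and 0.00703).

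After IL-4, Clec4d fell at every time. Its samples held 271, 262 and 308 after 0.5 h, 141, 112 and 100 after 1 h, 40, 26 and 21 after 2 h, and 56, 56 and 41 after 4 h. No IL-4 sample overlapped with an untreated one, and the lowest mean, 29.0 ± 9.85 (SD, n = 3) at 2 h, was 20.0-fold under the untreated mean of 581 ± 67.5. The log2 fold change was −1.05 ± 0.21 at 0.5 h (adjusted p = 0.00286), −2.30 at 1 h, −4.32 ± 0.21 at 2 h (adjusted p = 5.97e-09) and −3.49 at 4 h. Without replicate 2 the call at 0.5 h was lost (−1.01, adjusted p = 0.130).

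Clec4n, the gene of the fungal mannan receptor Dectin-2, was the weakest member per kb of locus in untreated cells (1.96). Untreated replicates held 49, 29 and 23 normalized read counts. LPS samples held 57, 41 and 51 after 0.5 h, 19, 8 and 8 after 1 h, 8, 1 and 2 after 2 h, and 6, 4 and 7 after 4 h. IL-4 samples held 34, 13 and 25 after 0.5 h, 21, 9 and 9 after 1 h, 5, 4 and 1 after 2 h, and 5, 5 and 4 after 4 h. Both stimuli left values of at most 8 at 2 and 4 h, below every untreated sample. The log2 fold change at 2 h was −3.13 ± 0.49 after LPS (adjusted p = 4.15e-05) and −3.08 ± 0.47 after IL-4 (adjusted p = 0.000216). Values this low move with a few counts. At 1 h the fall after LPS (−1.49, adjusted p = 0.0146) was lost without replicate 2 (−1.37, adjusted p = 0.0861) or 3 (−1.53, adjusted p = 0.0929), and the value after IL-4 (−1.34, adjusted p = 0.0575) was called without replicate 1 (−1.42, adjusted p = 0.0392).

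Clec5a, the gene of MDL-1, a myeloid receptor that binds flaviviruses, rose early after LPS and then declined. Untreated replicates held 18, 29 and 30 normalized read counts. After LPS they held 155, 252 and 273 after 0.5 h, 96, 135 and 141 after 1 h, 45, 80 and 58 after 2 h, and 30, 44 and 50 after 4 h. All samples of the first 3 times lay above the untreated ones, with a log2 fold change of 3.09 ± 0.29 at 0.5 h (ratio of means 8.83, adjusted p = 3.53e-07), 2.24 at 1 h and 1.21 at 2 h (adjusted p = 0.00159). The value at 4 h was 0.67 (adjusted p = 0.0517), which was called without replicate 1 (0.65, adjusted p = 0.00406) and after median-of-ratios rescaling (0.90, adjusted p = 0.00582), and the call at 2 h was lost with equal totals (0.57, adjusted p = 0.0875).

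The IL-4 samples of Clec5a held 33, 59 and 67 after 0.5 h, 32, 41 and 46 after 1 h, 15, 27 and 35 after 2 h, and 16, 13 and 12 after 4 h. All 3 samples lay above the untreated range at 0.5 and 1 h and below it at 4 h, and no single time was called (log2 fold change 0.99, 0.63, −0.04 and −0.84, adjusted p = 0.0535, 0.208, 0.948 and 0.0757). The course as a whole was called (adjusted p = 0.00375), and the fall from 0.5 to 4 h was −1.83 ± 0.32 (adjusted p = 0.000920). These are its highest and lowest IL-4 times, a choice for which the adjusted p of the fall does not allow. Without replicate 1, which was the lowest in 8 of 9 groups, the 0.5 h rise (1.07, adjusted p = 0.00289) and the 4 h fall (−1.18, adjusted p = 0.000981) were called, and after median-of-ratios rescaling the former was as well (0.98, adjusted p = 0.0474). Without replicate 2 or 3 the course was not (adjusted p = 0.181 and 0.117).

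Clec7a, the gene of the β-glucan receptor Dectin-1, was the member that IL-4 raised most. Untreated replicates held 127, 153 and 144 normalized read counts. After IL-4 they held 918, 1399 and 1361 after 0.5 h, 561, 739 and 750 after 1 h, 298, 447 and 535 after 2 h, and 525, 700 and 654 after 4 h. Every IL-4 sample exceeded every untreated one. The log2 fold change was 3.09 ± 0.21 at 0.5 h (ratio of means 8.67, adjusted p = 3.86e-07), 2.26 at 1 h, 1.55 at 2 h and 2.13 at 4 h, and per kb of locus Clec7a was the highest member at 0.5 h (110) and at 4 h (55.9) after IL-4. The step down from 0.5 to 1 h (−0.83, adjusted p = 0.0303) was lost without replicate 2 (−0.78, adjusted p = 0.378) or 3 (−0.81, adjusted p = 0.281).

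LPS lowered Clec7a. Its samples held 49, 107 and 88 after 0.5 h, 54, 77 and 83 after 1 h, 13, 21 and 18 after 2 h, and 13, 25 and 46 after 4 h. All 12 lay below the untreated samples, and the fall was largest at 2 h (log2 fold change −2.98 ± 0.37, 8.15-fold by the means, adjusted p = 3.93e-06) and held at 4 h (−2.46 ± 0.37, adjusted p = 2.93e-05). The value at 0.5 h (−0.86, adjusted p = 0.0629) was not called with all samples, and was with equal totals (−1.36, adjusted p = 0.00484) or without replicate 1 (−0.61, adjusted p = 0.0436). That at 1 h (−1.0, adjusted p = 0.0282) lost its call without replicate 2 (−1.0, adjusted p = 0.144), without replicate 3 (−1.10, adjusted p = 0.0639) and after median-of-ratios rescaling (−0.74, adjusted p = 0.0741). Whether counting used strand is not given in the sources used here, so reads of Clec7a and of Gm45969 cannot be told apart. Gm45969 held at least as many counts as Clec7a in 27 of 27 samples, 1.03 to 1.07 times as many in the 15 samples without LPS and 1.20 to 6.67 times as many in the 12 LPS samples. At LPS 1 h Gm45969 was higher than in untreated cells (log2 fold change 1.52, adjusted p = 0.000483) while Clec7a was lower. Gm45969 runs beyond Clec7a, so it can also hold reads from outside Clec7a. Its excess over Clec7a was 129 to 198, 264 to 471, 32 to 52 and 9 to 21 at the LPS times in order. Olr1, described below, held 321, 446 and 355, then 375, 526 and 663, then 41, 56 and 55, then 10, 13 and 6. Opposite regulation of Gm45969 and Clec7a cannot be read from these values. The part of Gm45969 in the Clec7a values, and of Olr1 in those of Gm45969, was not tested.

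Of the genes for receptors with inhibitory motifs, Clec12a, whose product MICL binds uric acid crystals, rose after LPS and fell after IL-4. Untreated replicates held 255, 276 and 296 normalized read counts. After LPS they held 629, 978 and 988 after 0.5 h, 575, 755 and 709 after 1 h, 501, 771 and 733 after 2 h, and 736, 849 and 938 after 4 h. All 12 LPS samples were above all untreated ones, at a nearly level plateau with log2 fold changes between 1.25 and 1.62 (SE 0.19, largest adjusted p = 3.29e-05), and no step between neighboring times was called, though without replicate 1 that from 0.5 to 1 h was (−0.43, adjusted p = 0.00106). After IL-4 the samples held 122, 164 and 160 after 0.5 h, 56, 104 and 86 after 1 h, 39, 55 and 46 after 2 h, and 49, 82 and 89 after 4 h. These lay below all untreated samples, by −0.90 ± 0.24 at 0.5 h (adjusted p = 0.0214) and by −2.55 ± 0.24 at 2 h, 5.91-fold by the means (adjusted p = 3.38e-06). The early call was lost without replicate 2 (−0.97, adjusted p = 0.144) or 3 (−0.90, adjusted p = 0.211).

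Clec4a2, the gene of DCIR, moved less. Untreated replicates held 291, 234 and 180 normalized read counts, and after LPS they held 106, 88 and 136 after 0.5 h, 239, 227 and 159 after 1 h, 195, 223 and 196 after 2 h, and 243, 155 and 163 after 4 h. A single low point at 0.5 h (log2 fold change −1.08 ± 0.22, adjusted p = 0.000766) was followed by values that overlapped with untreated cells (−0.17, −0.17 and −0.33, each ± 0.47 as a 95% interval). With equal totals these later values were called lower (−0.75, −0.83 and −0.94, adjusted p = 0.00735, 0.00348 and 0.00149), and without replicate 2 the course was not called (adjusted p = 0.118). After IL-4 the samples held 312, 224 and 257 after 0.5 h, 140, 104 and 122 after 1 h, 84, 73 and 89 after 2 h, and 150, 107 and 95 after 4 h. They overlapped with untreated cells at 0.5 h and lay below them afterwards, with −0.92 at 1 h, −1.49 ± 0.20 at 2 h (adjusted p = 7.91e-05) and −1.0 at 4 h. The calls at 1 and 4 h were lost without replicate 2 (−0.80 and −0.93, adjusted p = 0.130 and 0.0698).

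Clec4a1, a DCIR family member without a known inhibitory motif, climbed through the LPS course. Untreated replicates held 284, 175 and 196 normalized read counts, and the LPS samples held 410, 273 and 300 after 0.5 h, 636, 452 and 508 after 1 h, 719, 600 and 696 after 2 h, and 841, 785 and 892 after 4 h. From 1 h on all lay above the untreated samples, and the log2 fold change grew from 0.59 ± 0.19 at 0.5 h to 1.97 ± 0.19 at 4 h (adjusted p = 0.0142 and 1.91e-07). The 0.5 h call was lost with equal totals (0.08, adjusted p = 0.718) and without replicate 2 (0.57, adjusted p = 0.0764) or 3 (0.58, adjusted p = 0.126). IL-4 samples ranged from 142 to 268 over all times, and none of the 4 contrasts was called (−0.17, −0.44, −0.35 and 0.19, each ± 0.46 as a 95% interval), while without replicate 1 the IL-4 course was called (adjusted p = 0.0111).

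Clec4a3, its neighbor in the cluster, first fell and then recovered after LPS. Untreated replicates held 140, 132 and 140 normalized read counts. The LPS samples held 51, 43 and 54 after 0.5 h, 24, 46 and 46 after 1 h, 64, 202 and 183 after 2 h, and 157, 315 and 337 after 4 h. The first 2 times lay below untreated cells (log2 fold change −1.46 ± 0.38 and −1.86 ± 0.38, adjusted p = 0.00445 and 0.000576), the 2 h samples fell on both sides of them, and the 4 h samples lay above without reaching the threshold (0.89 ± 0.38, adjusted p = 0.0530). Replicate 1 was the lowest by far at 2 and 4 h. Without it the gene was called higher at both times (0.50 and 1.25, adjusted p = 0.00687 and 2.83e-06), as it was at 4 h after median-of-ratios rescaling (1.12, adjusted p = 0.0109), and without replicate 2 the 0.5 h fall was not called (−1.40, adjusted p = 0.0583). After IL-4 the samples ranged from 135 to 166 up to 2 h and then held 252, 293 and 299 at 4 h, which was 2.05-fold above untreated cells (1.03 ± 0.09, adjusted p = 1.68e-06). Without replicate 1 the value at 2 h was called as well (0.27, adjusted p = 0.0200). Reads with several alignments had been removed, so values of Clec4a1, Clec4a2 and Clec4a3, which resemble each other and their neighbors Clec4a4, Clec4b1 and Clec4b2, leave out reads that these genes share.

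Clec2d rose after LPS, most of it by 2 h, and showed no called change after IL-4. Untreated replicates held 114, 78 and 86 normalized read counts, and after LPS they held 317, 244 and 276 after 0.5 h, 380, 383 and 357 after 1 h, 675, 784 and 822 after 2 h, and 776, 777 and 870 after 4 h. No LPS sample overlapped with an untreated one. In time order the log2 fold change was 1.59, 2.02, 3.04 and 3.13, each ± 0.14, the last a ratio of means of 8.72 (adjusted p = 2.61e-07 and 3.73e-11 at 0.5 and 4 h), and the step from 1 to 2 h was 1.02 ± 0.14 (adjusted p = 2.74e-05) and that from 2 to 4 h 0.09 (adjusted p = 0.719). IL-4 samples ranged from 64 to 146, with log2 fold changes of 0.02, −0.27, −0.11 and 0.10, each ± 0.59 as a 95% interval (course, adjusted p = 0.772).

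**Figure D3:**
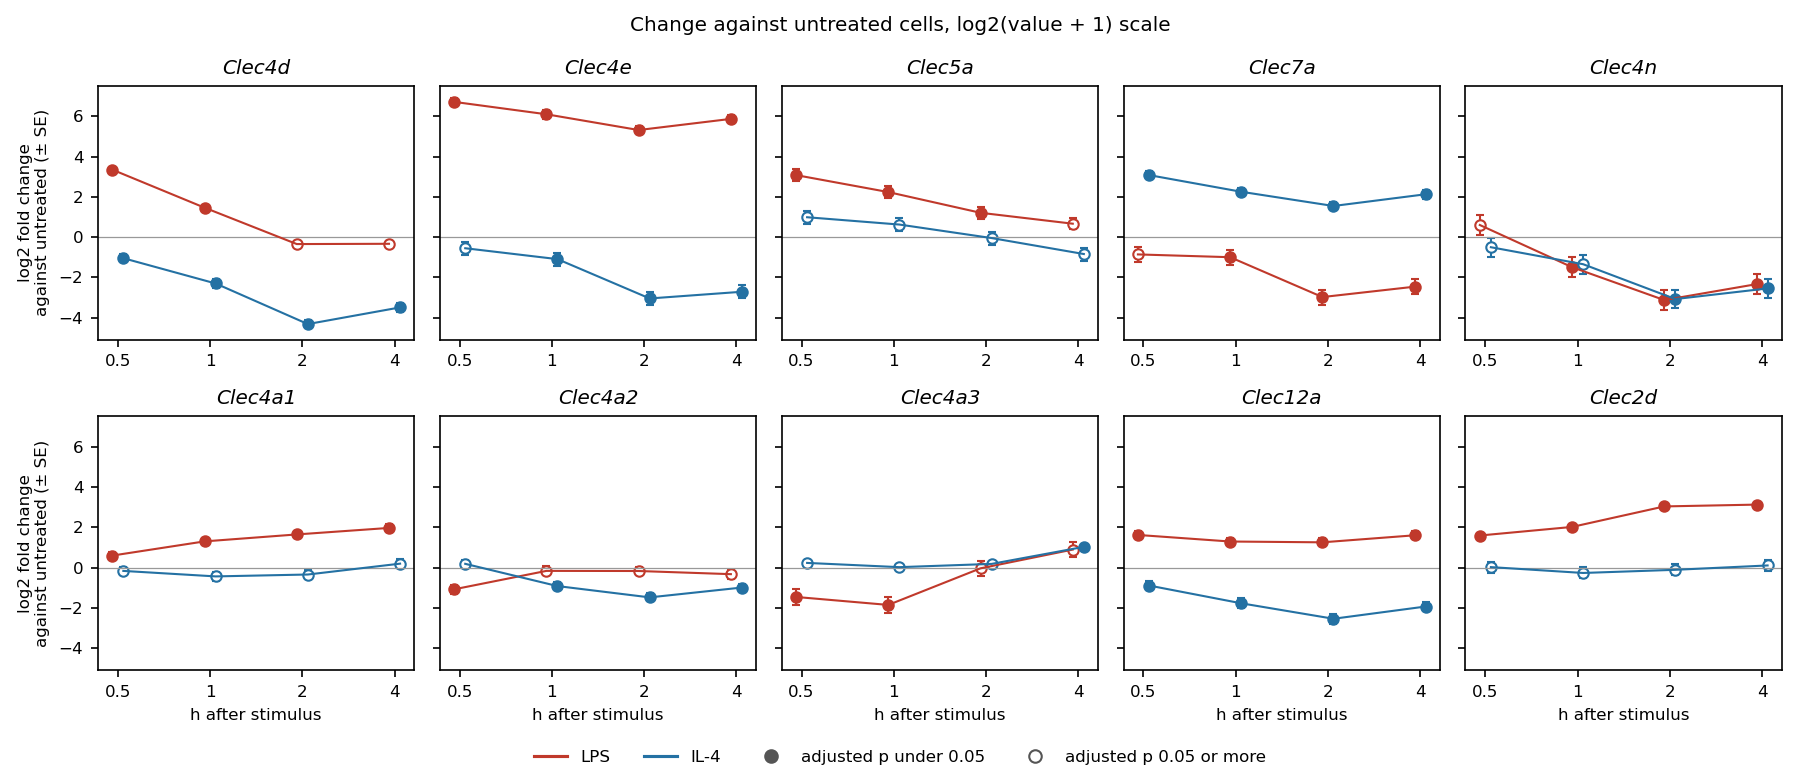
Log2 fold change against untreated cells (log2 of normalized read counts + 1, ± SE, n = 3 per group) by hours after LPS (red) or IL-4 (blue), filled where the adjusted p was under 0.05. Clec4e starts at 6.73 and Clec4d at 3.36 after LPS at 0.5 h, and Clec7a starts at 3.09 after IL-4.

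The 2 stimuli were compared directly at equal times in a fit of all 27 samples. At 0.5 h 9 of the 10 genes differed (6 higher and 3 lower in LPS, beside 53.8% of all tested genes), at 1 h 9 (7 and 2, beside 64.5%), at 2 h 8 (7 and 1, beside 68.6%) and at 4 h 8 (7 and 1, beside 68.0%). Of all tested genes, 18%, 24%, 26.4% and 26.1% were higher in LPS and 35.8%, 40.5%, 42.3% and 41.9% lower. With equal totals the calls were 5 higher and 3 lower at 0.5 h and 6 higher and 2 lower at each later time. Clec4e showed the widest gap, a log2 difference of 7.28 ± 0.27 at 0.5 h and, against the floor, a level at least 253-fold higher in LPS at 2 h and 371-fold higher at 4 h (adjusted p = 5.68e-18 and 3.21e-18). Clec4d was higher in LPS by 4.40, 3.77, 3.98 and 3.16 at the 4 times, and Clec12a by 2.51, 3.07, 3.80 and 3.54 (largest adjusted p = 3.55e-09). Clec2d, Clec5a and Clec4a1 were also higher in LPS at each time, by 1.57 to 3.15, by 1.26 to 2.09 and by 0.76 to 1.99. Clec5a at 2 h and Clec4a1 at 0.5 h lost their call with equal totals (0.64 and 0.38, adjusted p = 0.0685 and 0.106), Clec5a at 2 h lost it without replicate 2 (1.12, adjusted p = 0.0514) and Clec4a1 at 0.5 h without replicate 3 (0.79, adjusted p = 0.0564).

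Clec7a was the reverse case, lower in LPS by −3.94 ± 0.33 at 0.5 h and by −4.60 ± 0.33 at 4 h, which is 22.4-fold by the means (adjusted p = 4.69e-10 and 9.42e-12). Clec4a3 was lower in LPS at 0.5 and 1 h (−1.69 and −1.88, adjusted p = 6.22e-05 and 1.17e-05), and at 2 and 4 h its differences of −0.22 and −0.13 had 95% intervals of ± 0.64. With equal totals these were called (−0.85 and −0.76, adjusted p = 0.0172 and 0.0313). Clec4a2 was lower in LPS at 0.5 h (−1.27, adjusted p = 2.35e-05) and higher afterwards (0.76, 1.31 and 0.67, adjusted p = 0.00355, 9.01e-06 and 0.00846). Its calls at 1 and 4 h were lost with equal totals (0.28 and 0.05, adjusted p = 0.256 and 0.854), at 1 h without replicate 2 (0.57, adjusted p = 0.111) and at 4 h without replicate 3 (0.61, adjusted p = 0.0523). For Clec4n no time was called (1.10, −0.15, −0.05 and 0.21, each ± 1.03 as a 95% interval), and the first was without replicate 1 (1.29, adjusted p = 0.0136) and after median-of-ratios rescaling (1.34, adjusted p = 0.0331).

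**Figure D4:**
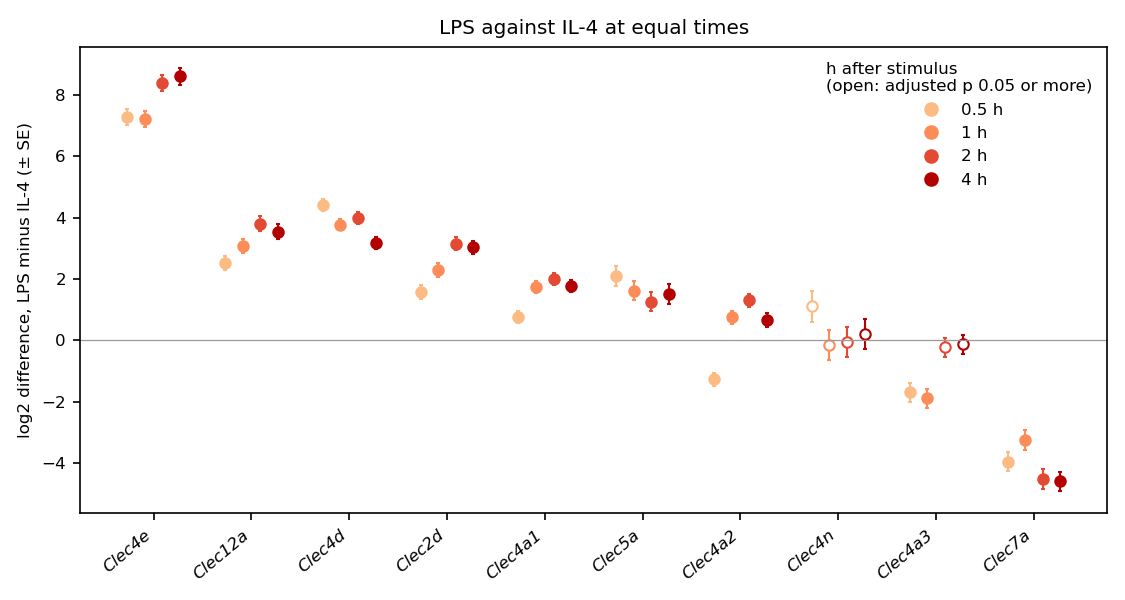
Log2 difference between LPS and IL-4 (LPS minus IL-4, ± SE, n = 3 per group) for each gene at the 4 times (light for 0.5 h to dark for 4 h), open where the adjusted p was 0.05 or more. Clec4e lies above 7 at all times, Clec7a lies below −3, and Clec4n has open symbols at every time.

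Between neighboring times, 7 genes changed from 0.5 to 1 h after LPS (3 higher and 4 lower, beside 49.7% of genes), 7 from 1 to 2 h (2 higher and 5 lower, beside 43.3%) and 0 from 2 to 4 h (beside 22.9%), where 2 of the 10, Clec4e and Clec4a3, had an unadjusted p under 0.05. Of all genes, 25.1% and 24.6% were called higher and lower in the first of these steps, 21.5% and 21.8% in the second and 11.4% and 11.5% in the last. After IL-4 the steps held 4 (all lower, beside 3.61% of genes lower, 4.21% higher and 7.82% in all), 3 (all lower, beside 5.37%, 4.03% and 9.4%) and 2 (both higher, beside 3.09%, 2.4% and 5.48%). The calls from 2 to 4 h after IL-4 were Clec4d (0.83 ± 0.21, adjusted p = 0.0338) and Clec4a3 (0.85 ± 0.09, adjusted p = 0.000131), and both were lost without replicate 2 (0.70 and 0.86, adjusted p = 0.460 and 0.0646) or 3 (0.78 and 0.84, adjusted p = 0.221 and 0.0578). That of Clec4a3 was also lost in 1 fit of all 27 samples (adjusted p = 0.173). Of the LPS calls from 0.5 to 1 h, those of Clec4e, Clec4a2, Clec5a and Clec2d were lost without replicate 2 and those of Clec4e, Clec4n, Clec4a1, Clec5a and Clec2d without replicate 3 (adjusted p from 0.0625 to 0.241). From 1 to 2 h those of Clec4e, Clec4n and Clec5a were lost without either (0.0507 to 0.128). All 4 IL-4 calls from 0.5 to 1 h (Clec4d, Clec4a2, Clec7a and Clec12a) and those of Clec4e and Clec4n from 1 to 2 h were lost without replicate 2 or 3 as well. Without replicate 1 the LPS step from 2 to 4 h held 7 calls, Clec4e, Clec4n, Clec4a1, Clec4a3, Clec7a and Clec12a higher and Clec5a lower. Also without replicate 1, Clec4a1 was called higher from 1 to 2 h after LPS, Clec7a and Clec12a lower from 1 to 2 h after IL-4, and Clec4a1, Clec7a and Clec12a higher and Clec5a lower from 2 to 4 h after IL-4 (largest adjusted p = 0.0148).

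The order of the 9 group means differed between genes. For Clec4d it ran from 5941 in LPS 0.5 h down to 29.0 in IL-4 2 h, a 205-fold span in which 2 of the 8 neighboring pairs of groups overlapped. Clec7a ran from 1226 in IL-4 0.5 h to 17.3 in LPS 2 h (70.7-fold, 4 of 8 pairs overlapping), Clec12a from 865 in LPS 0.5 h to 46.7 in IL-4 2 h (18.5-fold, 5 of 8), Clec5a from 227 to 13.7 (16.6-fold, 5 of 8) and Clec2d from 808 in LPS 4 h to 76.3 in IL-4 1 h (10.6-fold, 5 of 8). Clec4a2 (3.22-fold), Clec4a1 (5.33-fold) and Clec4a3 (7.28-fold) had the narrowest spans, and 7 of 8 neighboring pairs overlapped for Clec4a2, Clec4a3 and Clec4n.

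Per kb of locus, Clec4d (44.1) led in untreated cells, followed by Clec12a (18.3), Clec4a1 (17.1), Clec2d (15.7) and Clec7a (12.6), while Clec5a (2.35), Clec4e (2.27) and Clec4n (1.96) came last. At LPS 0.5 h Clec4d (451) and Clec4e (254) led, and at LPS 4 h Clec4e (138) and Clec2d (136). Per kb of cDNA the first place was the same at LPS 0.5 h and in untreated cells, and at LPS 4 h it went to Clec2d (665) before Clec4a1 (539) and Clec4e (442). These are levels, and they are compared between genes by length alone.

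Among 7559 protein-coding genes with a mean of at least 50 in some group, those whose 9 group means followed a member most closely on the log2 scale were named by Pearson's r, as a description over 9 groups that share libraries and scaling. Clec4e ran closest to Cd14, the LPS co-receptor (r = 0.992), then Cybb, an NADPH oxidase subunit, and Dusp1, a MAP kinase phosphatase. Clec2d ran closest to the interferon-inducible chemokine Cxcl11 (0.996), then Ppp2r1a and Cers6, and Clec4a1 to the ubiquitin-like interferon response gene Isg15 (0.987), then Slamf7 and Ntng2. Clec7a ran with Snx16 (0.984) and the transcription factor gene Etv5, Clec12a with Klf6 (0.975), Ptprc and Dscam, Clec4d with Dtx4 (0.972), Wsb1 and Gdpd1, Clec5a with Rffl (0.963), Dennd1c and Cdc42bpg, Clec4n with Wdfy3 (0.964), Lrp1 and Gpnmb, and Clec4a3 with Fastk (0.979), Pgm1 and Nprl3. Clec4a2 had the loosest match (Mtus1, 0.880, then Ap1s3 and Septin10). Between members the closest pairs were Clec4a1 with Clec2d (0.979) and Clec4e with Clec12a (0.969), and the most opposed was Clec7a with Clec2d (−0.922).

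Neighbors of the members in their clusters did not all move with them. In the Clec7a cluster, Cd69, an early activation marker, was 8.22 ± 0.37 higher at LPS 4 h on the log2 scale (adjusted p = 3.04e-11), from 1, 2 and 5 in untreated replicates to 647, 1264 and 1170. Clec12b, next to Clec12a, reached 62 at most and was lower at IL-4 2 h (−3.37, adjusted p = 8.26e-06). In the Clec4 cluster, Clec4b1 was lower at LPS 0.5 h (−2.24, adjusted p = 0.000234) where Clec4d and Clec4e were higher, Clec4a4 showed no call at LPS 0.5 or 4 h or at IL-4 2 or 4 h, and Clec4b2 stayed at 7 or less in every sample.

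The adaptors, kinases and other genes that carry the receptors' signals were counted in the same way. Of 23 such genes, 22 were tested. After LPS 10 were higher and 4 lower after 0.5 h, 11 and 7 after 1 h, 12 and 7 after 2 h, and 13 and 9 after 4 h, with a median log2 fold change of 0.89 at 4 h against −0.26 over all tested genes. These counts stand beside 19.6%, 24.8%, 26.9% and 25.9% of all tested genes called higher and 34.4%, 39.0%, 39.0% and 37.6% called lower. Fcer1g, the adaptor of Mincle, MCL and Dectin-2, held 132, 152 and 136 in untreated cells and 714, 697 and 583 at LPS 2 h (2.24 ± 0.13, adjusted p = 5.16e-10), while Tyrobp, the adaptor of MDL-1, went from 98, 113 and 117 to 34, 33 and 36 (−1.64 ± 0.21, adjusted p = 4.68e-06). Syk was higher at all 4 LPS times, by 1.88 ± 0.19 at 1 h (adjusted p = 4.22e-07), and Card9 was lower at 2 h (−1.88 ± 0.31, adjusted p = 7.81e-05). Among the largest changes, the kinase gene Src rose from 12, 5 and 3 to 960, 578 and 654 at 2 h and Malt1, the protease of the Card9 complex, from 157, 168 and 163 to 4900, 5533 and 5980, whereas the phosphatase gene Inpp5d fell from 2499, 2507 and 2620 to 44, 56 and 45 and Rubcn fell by 2.94 on the log2 scale at 1 h.

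After IL-4 the signaling list held 0 higher and 5 lower after 0.5 h, 1 and 9 after 1 h, 3 and 11 after 2 h, and 1 and 7 after 4 h (median −0.39 at 2 h against 0.00 over all genes), beside 8.15%, 11.1%, 14.3% and 13.4% of all tested genes called higher and 8.14%, 9.83%, 13.2% and 12.5% called lower. Syk fell from 1199, 1117 and 1147 to 627, 525 and 456 at 2 h (−1.12 ± 0.17, adjusted p = 0.000230). Fcer1g was lower at 0.5 h alone (−0.63, adjusted p = 0.0251), Tyrobp at 1 and 2 h (−0.51 and −0.59, adjusted p = 0.0308 and 0.0121), and Card9 was called at none of the 4 times (values between −0.20 and 0.14). Among genes with a called course and a mean of at least 50 in the higher group, the largest falls were those of the Rac activator gene Vav3 (−2.16 ± 0.19 at 4 h) and of the kinase gene Lyn (−1.50 ± 0.15 at 2 h), and the largest rises those of the kinase gene Prkcd (1.43 ± 0.12 at 4 h, adjusted p = 1.84e-06) and the phosphatase gene Ptpn11 (0.32 ± 0.11 at 2 h, adjusted p = 0.0372). Src, with lower values, was 1.89 higher at 2 h (28, 21 and 24, adjusted p = 0.0304), with no call over the course (adjusted p = 0.146).

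Of 50 other C-type lectin genes, 21 were tested. After LPS 5 were higher and 3 lower after 0.5 h, 4 and 8 after 1 h, 6 and 7 after 2 h, and 12 and 6 after 4 h, and after IL-4 the counts were 3 and 1, 3 and 4, 3 and 6, and 5 and 4. In either direction this was 8, 12, 13 and 18 of 21 after LPS, beside 53.9%, 63.8%, 65.9% and 63.5% of all tested genes, and 4, 7, 9 and 9 of 21 after IL-4, beside 16.3%, 21.0%, 27.6% and 25.9%. Olr1, the gene of the oxidized LDL receptor, held at most 2 in untreated samples and rose at least 174-fold by LPS 1 h. It then declined to 41, 56 and 55 at LPS 2 h and 10, 13 and 6 at LPS 4 h. Mrc1, the mannose receptor gene, held 2386, 1541 and 1708 in untreated cells, 112, 103 and 92 at LPS 4 h (−4.16 ± 0.19, adjusted p = 4.71e-11) and 16253, 14498 and 16212 at IL-4 1 h (3.08 ± 0.14, adjusted p = 5.66e-09), and like Clec7a it was lower in LPS than in IL-4 at each time. Mgl2, a galactose-type lectin gene used as a marker of IL-4 activation, held 7, 1 and 1 in untreated cells and 148, 56 and 77 at IL-4 4 h (4.78 ± 0.54, adjusted p = 1.95e-05). Colec12, a collectin scavenger receptor gene, fell after both stimuli, with −2.78 at LPS 2 h and −2.28 at IL-4 4 h, and so did Clec4b1, with −3.50 at LPS 1 h and −2.19 at IL-4 2 h.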

How the data were processed

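Chromatin-associated RNA of 27 BMDM samples was turned into libraries by a random-primed Smart-seq2 procedure (the authors), sequenced as single-end reads, aligned to mm10 with TopHat2 (2.1.1), cleared of multi-mapping and blacklisted reads (bedtools 2.29.2) and counted per RefSeq gene. The deposited values are counts that the authors scaled on invariant genes and rounded, so they were handled as a score, here called normalized read counts, and not as raw counts. The submitters' processing notes also name DESeq2 and R 3.6.2. The deposited gene and cDNA lengths (other columns of the table, as the authors gave them) served for levels per kb. The strand setting of the counting is not given in the sources used here, and the depth per sample is unknown, so no counting interval is given.

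Genes with at least 10 in at least 3 samples were tested on log2(value + 1), which understates changes of low genes, with limma 3.58.1 (R 4.3.3) with a mean-variance trend and Benjamini-Hochberg adjustment over the 13901 genes (threshold 0.05). Each course was fitted with its 15 samples (F test, contrasts against untreated and between times), and LPS against IL-4 with all 27. The study's impulse model was not run. Intervals of 95% use limma's degrees of freedom. Where all samples of a group were at or under 3, folds are bounds against 3. The script was tested on simulated data. Members, gene lists and motifs were chosen with earlier results of these data known. Named non-members were, per list and stimulus, the 2 largest rises and 2 largest falls (F test called, mean of at least 50 in the higher group), the 4 genes Fcer1g, Tyrobp, Syk and Card9, and the 3 protein-coding genes most like each member (1 of those is not reported here), and Clec12b, Clec4a4, Clec4b2 and Gm45969 were named for their position after their values were seen. Alternatives were 2 rescalings, a pseudocount of 8, no filter, a mean of at least 50, a replicate block, averaging replicates 2 and 3, 1 fit of all samples, and leaving out each replicate.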

Additional observations from a re-analysis of the deposited data

Results flagged for a closer look

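For each gene and stimulus the highest and the lowest effect against untreated cells were compared, and 4 cases stood out because these lay on opposite sides of 0, at least 1 of them was called, and the difference itself was called in the limma fit. Clec4d went from 3.36 at LPS 0.5 h to −0.34 at LPS 2 h, a difference of −3.70 ± 0.15 (SE, log2 scale, adjusted p = 2.38e-11), in which the later value was not called by itself. The median tested gene stood at −0.29 at LPS 2 h, and Clec4d differed from that median by −0.06. Clec4n went from 0.61 at LPS 0.5 h, not called, to −3.13 at LPS 2 h, a difference of −3.73 ± 0.49 (adjusted p = 7.22e-06). Clec4a2 went from 0.18 at IL-4 0.5 h, not called, to −1.49 at IL-4 2 h, a difference of −1.67 ± 0.20 (adjusted p = 5.18e-05). Clec4a3 went from −1.86 at LPS 1 h to 0.89 at LPS 4 h, not called, a difference of 2.75 ± 0.38 (adjusted p = 1.86e-05). Each pair of times shares the same untreated samples. The times were picked as the extremes in these same data, and the adjusted p-values do not allow for that choice.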

How the results depend on the processing

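Of 200 results of single genes, 130 kept their side of the threshold in each of the 11 alternatives that could be run for them and 70 changed in at least 1. The only reversal was Clec4a3 at LPS 2 h, −0.04 with all samples and 0.50 without replicate 1, against −0.37 without replicate 2. The counts of called genes moved by over 1.5 times mainly in the steps between times. The LPS steps (7, 7 and 0) gave 3 and 4 for the first and second with replicates 2 and 3 averaged, and for the last 5 with the replicate block and 1 in 1 fit of all 27 samples. The IL-4 steps (4, 3 and 2) gave 5 for the second after median-of-ratios rescaling, 2 and 1 for the first and last with no filter, 6 and 7 for the second and last with the replicate block, 0, 1 and 0 with replicates 2 and 3 averaged, and 1 for the last in 1 fit of all samples. Leaving out 1 replicate gave 2 to 8, 4 to 8 and 0 to 7 for the LPS steps and 0 to 4, 1 to 5 and 0 to 6 for the IL-4 steps, 6 to 9, 7 to 9, 7 to 9 and 6 to 9 at the 4 LPS times, 1 to 4, 3 to 6, 6 to 7 and 6 to 8 at the 4 IL-4 times, and 8 to 10, 8 to 9, 7 to 8 and 7 to 8 for LPS against IL-4, with 9 to 10 and 7 to 9 over the LPS and IL-4 courses. Of the single-gene results, 28 lost their call without replicate 2 and 24 without replicate 3, fits with fewer samples by construction, and 26 gained one without replicate 1, whose cause was not tested. Equal replicate numbers correlated with r from 0.09 to 0.71 over 36 pairs of groups, 2 of 108 values at or under 0.1, and unlike numbers with r from −0.58 to 0.39. A sample was closest to its own number in 160 of 216 checks, each a choice among 3 replicates. These values are a hint from the data and not the design. With the block 27 of the 200 results were added as calls and none was lost. Clec4n and Clec4e hold under 10 counts in most IL-4 samples from 1 h on, where a few counts move a log2 value.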
